A study of Macaca mulatta with 12 samples.

Results

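The pre-miRNAs of miR-199a and miR-214 were examined in small RNA sequencing profiles of rhesus macaque tissues. They were chosen by name among 832 readable pre-miRNAs in the list of the study, as those whose names begin with mml-mir-199a, mml-mir-199b or mml-mir-214. The rule took 4 of them, namely mml-mir-199a-1, mml-mir-199a-2, mml-mir-199a-3 and mml-mir-214, and none with a name that begins with mml-mir-199b. They carry 5 distinct mature sequences of 1219, because identical mature sequences were counted once, and all 5 passed the filter on low levels, as did 371 of the 1219.

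The 12 profiles come from 8 tissues of wild-type, untreated macaques aged 36 months. Kidney, large intestine, small intestine and muscle have 2 profiles each, and liver, lung, occipital lobe and spinal cord have 1 each. The tissues came from 2 animals, and the labels do not say which animal gave which profile, so that the p-values measure only the spread between these profiles. Each profile holds between 22118095 and 25579064 valid reads, and levels are given as reads per 10000000 valid reads (RPTM), on which scale a single read stands for 0.391 to 0.452 RPTM. The tissue labels were compared with miRNAs known for their cell types. These markers were chosen with earlier results of these data known, so that the comparison is not an independent check. The 6 muscle markers together had 137181 RPTM in muscle 1 and 158221 in muscle 2 and no more than 944 in any other profile. Of these sums, miR-133a-3p alone made up 129703 and 144690 RPTM. miR-122a-5p of hepatocytes reached 7320 RPTM in liver against at most 4.37 RPTM elsewhere. The markers of neurons and glia summed to 399474 RPTM in the occipital lobe and 290521 RPTM in the spinal cord against at most 1172 RPTM elsewhere.

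miRNAs are cut from hairpin precursors, and each hairpin can give a mature miRNA from its 5' arm (5p) and its 3' arm (3p). The bases 2 to 8 of a mature miRNA, the seed, guide it to its targets. miR-199a and miR-214 are known as miRNAs of mesenchymal cells, such as fibroblasts and the smooth muscle cells of vessel walls. In mammals, a long non-coding RNA on the opposite strand of the dynamin gene DNM3 carries both miR-199a and miR-214, and another copy of miR-199a lies within the dynamin gene DNM2. In RefSeq's annotation of the macaque (T2T-MMU8v2.0), MIR199A-1 and MIR214 both lie within DNM3 and within the non-coding gene LOC144340355, and MIR199A-2 lies within DNM2. The name mml-mir-199a-3 was not among the synonyms of the RefSeq entries, which were the means of matching.

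The 5 mature sequences are shown because differences along their whole length decide which reads can be told apart. The capitals mark the seed.
miR-199a-5p (mml-mir-199a-1 and mml-mir-199a-2): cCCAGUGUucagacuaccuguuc
miR-199a-3-5p (mml-mir-199a-3), as listed: cAGUGUUUagacuaucuguuca
miR-199a-3p (all copies of mml-mir-199a): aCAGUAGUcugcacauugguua
miR-214-5p (mml-mir-214): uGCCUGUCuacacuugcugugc
miR-214-3p (mml-mir-214): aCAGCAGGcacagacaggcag
All copies of mml-mir-199a give the same miR-199a-3p, so that its reads cannot be assigned to a copy. The 5' arm tells mml-mir-199a-3 apart from mml-mir-199a-1 and mml-mir-199a-2, which share it. Of the reads that matched a hairpin exactly, 183325 matched mml-mir-199a-1, 183148 matched mml-mir-199a-2 with 1 that matched no other hairpin, and 175610 matched mml-mir-199a-3 with 7611 of its own. The 1986 reads of mml-mir-214 matched no other hairpin.

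The reads of mml-mir-199a-3 did not have the listed 5' end. No read was identical to the listed miR-199a-3-5p, and 96.3% of its 5' arm reads began 2 nucleotides further upstream, against 0.68% at the listed position. The median miRNA had 97.8% of its reads at the listed position, and 32 miRNAs had under 10%. The most frequent read of this arm, with 5107 reads, is shown beside miR-199a-5p to compare their seeds, again in capitals.
miR-199a-5p: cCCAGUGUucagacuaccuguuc
miR-199a-3-5p, most frequent read: cCCAGUGUuuagacuaucuguuc
In other mammals, the miRNA with the sequence of this most frequent read is known as miR-199b-5p. As read, both sequences have the seed CCAGUGU, whereas the listed miR-199a-3-5p has AGUGUUU. Counted from the 5' end, they differ by C10U and C17U, and the first base of each token is that of miR-199a-5p. This upstream start held at least 90.4% of the reads of this arm in each profile.

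The 3' arms of both families also began at more than a single position. For miR-199a-3p, 69.6% of the reads began at the listed base, 23.4% began 1 nucleotide upstream and 6.91% began 1 nucleotide downstream. The upstream share ranged from 18.9% in liver to 25.8% in large intestine 2. For miR-214-3p, 57.3% began at the listed base and 41.1% began 1 nucleotide upstream. By contrast, 96.7% of the miR-199a-5p reads and 97.4% of the miR-214-5p reads began at the listed base. The levels below count reads without mismatch whose ends lie at most 2 nucleotides from the listed ends, so that these start positions are included. At the 3' end, the listed miR-199a-3-5p reaches 1 nucleotide further than miR-199a-5p. Reads of 21 nucleotides from the main start were therefore counted for miR-199a-5p (820 reads) but not for miR-199a-3-5p. This lowers the levels of miR-199a-3-5p. At the 5' end, later starts were kept for miR-199a-3-5p than for miR-199a-5p, which raises its levels relative to miR-199a-5p. Neither amount was measured. The same window was used for the tailed reads of miR-199a-3-5p.

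miR-199a-3p was by far the most abundant of the 5 mature sequences. Its level was 6002 RPTM in kidney 1 and 3896 in kidney 2, 6733 in large intestine 1 and 6011 in large intestine 2, 4748 in small intestine 1 and 4410 in small intestine 2, and 5872 in liver and 6283 in lung. It was 18527 RPTM in muscle 1 and 6357 in muscle 2, and 382 in the occipital lobe and 855 in the spinal cord. Thus 9 of the 12 profiles lie between 3896 and 6733 RPTM, muscle 1 lies above them and the occipital lobe and the spinal cord below. By level, miR-199a-3p took place 21 to 43 among all mature sequences in the profiles outside the nervous system, place 104 in the spinal cord and place 138 in the occipital lobe.

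miR-199a-5p was less abundant. It had 432 RPTM in kidney 1 and 209 in kidney 2, 400 in large intestine 1 and 289 in large intestine 2, 243 in small intestine 1 and 576 in small intestine 2, 759 in liver, 460 in lung, 1050 in muscle 1, 1279 in muscle 2, 29.99 in the occipital lobe and 82.4 in the spinal cord. Both muscle profiles were the highest and both neural profiles the lowest. The 5' arm of mml-mir-199a-3 had 61.8 RPTM in kidney 1, 43.4 in kidney 2, 165 in large intestine 1, 119 in large intestine 2, 149 in small intestine 1, 281 in small intestine 2, 80.7 in liver, 158 in lung, 593 in muscle 1, 1061 in muscle 2, 5.22 in the occipital lobe and 41.8 in the spinal cord. It showed the same extremes, but the spinal cord came close to kidney 2.

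The levels of miR-214 were much lower. miR-214-3p had 49.7 RPTM in kidney 1, 28.5 in kidney 2, 34.8 in large intestine 1, 33.6 in large intestine 2, 34.0 in small intestine 1, 17.3 in small intestine 2, 55.3 in liver, 41.5 in lung, 164 in muscle 1, 60.6 in muscle 2, 2.17 in the occipital lobe and 7.53 in the spinal cord. miR-214-5p ranged from 3.91 RPTM in the occipital lobe and 7.53 in the spinal cord to 73.0 in muscle 1, with 8.86 to 35.0 in the other 9 profiles. The neural values of miR-214 rest on 5 and 18 reads of the 3p and on 9 and 18 reads of the 5p, so that their counting error is large.

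**Figure D1:**
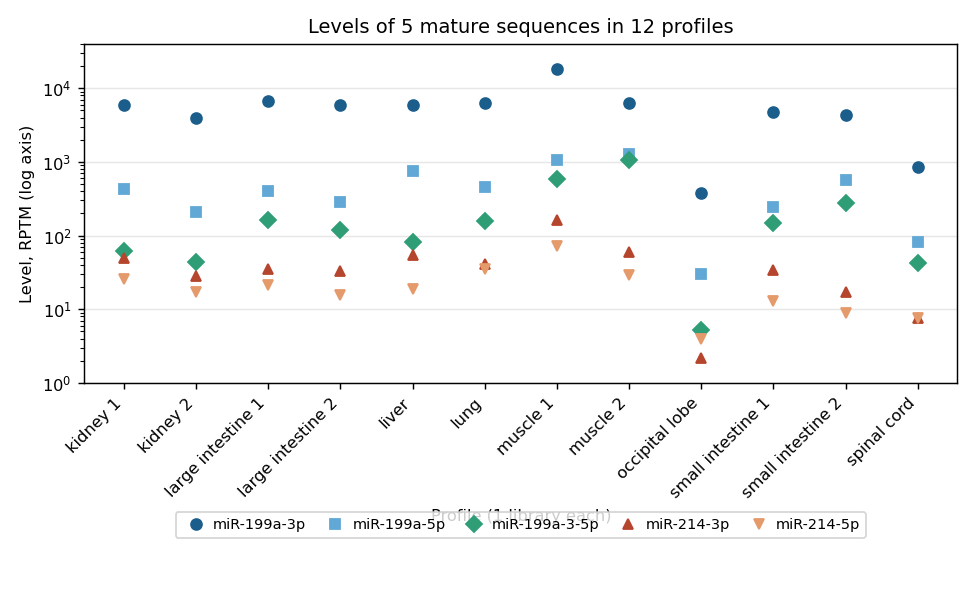
Levels of the 5 mature sequences in RPTM on a log axis, with 1 point for each of the 12 profiles. All 5 are lowest in the occipital lobe and the spinal cord, and miR-199a-3p is highest in muscle 1 with 18527 RPTM.

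All 5 mature sequences were lower in the neural group, which joins the occipital lobe and the spinal cord, than in the mean of the other groups. This answers which tissues hold little of these mesenchymal miRNAs. With edgeR's quasi-likelihood test, TMM factors and Benjamini-Hochberg adjustment over the 371 miRNAs, the log2 fold change was −4.59 ± 0.55 (SE) for miR-199a-3p with an adjusted p of 1.3e-05, which is a 24.1-fold lower level. It was −4.42 ± 0.53 for miR-199a-5p (adjusted p = 1.3e-05), −4.06 ± 0.67 for miR-199a-3-5p (adjusted p = 0.00017), −4.44 ± 0.71 for miR-214-3p (adjusted p = 0.00013) and −3.19 ± 0.64 for miR-214-5p (adjusted p = 0.00074). Of all miRNAs, 24.3% were called lower and 43.7% higher in the neural group, and the median over all miRNAs was 0.89. In RPTM, the lowest of the other 10 profiles was 4.56-fold above the higher neural profile for miR-199a-3p, 2.54-fold for miR-199a-5p and 2.30-fold for miR-214-3p, but only 1.04-fold for miR-199a-3-5p and 1.18-fold for miR-214-5p. For how many of all miRNAs the neural profiles lie apart from the others was not counted. In bulk tissue, fewer cells of a type and less of the miRNA per cell cannot be told apart.

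The scale matters for the size of these differences. With totals of valid reads as library sizes instead of TMM factors, the median of all miRNAs in the neural comparison moved from 0.89 to 1.97, and the share of higher among the called miRNAs moved from 64.3% to 83.5%. On that scale, miR-199a-3p was lower in the neural group by a log2 of −3.36 and miR-214-3p by −3.21, and all 5 calls held. In the intestines and the kidney, the same change turned the balance of all calls, from 71.0% to 21% higher in the large intestine, from 74.2% to 23.5% in the small intestine and from 73.8% to 42.5% in the kidney.

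The spinal cord lay above the occipital lobe for each mature sequence. miR-199a-3p was counted 2043 times in the spinal cord and 878 times in the occipital lobe, miR-199a-5p 197 and 69 times, and miR-199a-3-5p 100 and 12 times. With 1 profile each, this difference has no replicate check.

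All 5 mature sequences were also higher in muscle than in the mean of the other groups. The log2 fold change was 3.24 ± 0.42 (SE) for miR-199a-3-5p (edgeR, adjusted p = 5.8e-05), 1.93 ± 0.34 for miR-199a-5p (adjusted p = 0.00072), 2.10 ± 0.44 for miR-214-3p (adjusted p = 0.0026), 1.73 ± 0.35 for miR-199a-3p (adjusted p = 0.002) and 1.71 ± 0.45 for miR-214-5p (adjusted p = 0.01). The background was 22.6% of miRNAs called higher and 15.4% called lower in muscle, with a median over all miRNAs of −0.22. In RPTM, both muscle profiles were above the other 10 for miR-199a-5p, miR-199a-3-5p and miR-214-3p, whereas muscle 2 lay below large intestine 1 for miR-199a-3p and below lung for miR-214-5p. In CPM after TMM factors, the scale of the test, this held for miR-199a-5p and miR-199a-3-5p, but muscle 2 had 9.94 of miR-214-3p against 9.97 in large intestine 2, and 1044 of miR-199a-3p against 1784 there.

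These differences rest partly on the neural profiles, which enter the mean of the other groups, and partly on muscle 1. When the neural group was left out of the fit, the log2 fold change of muscle was 0.88 for miR-199a-3p and its call was lost (adjusted p = 0.063), whereas the calls held for miR-199a-5p (1.11, adjusted p = 0.03), miR-199a-3-5p (2.52, adjusted p = 0.00021), miR-214-3p (1.30, adjusted p = 0.022) and miR-214-5p (1.11, adjusted p = 0.041). Without muscle 1, the calls of miR-199a-3p (0.71, adjusted p = 0.24), miR-214-3p (1.15, adjusted p = 0.19) and miR-214-5p (0.87, adjusted p = 0.37) were lost. In a fit of muscle, kidney and intestines alone, 8 profiles, the calls held for miR-199a-3-5p (2.05, adjusted p = 0.001) and miR-214-3p (1.13, adjusted p = 0.045) and were lost for miR-199a-3p (0.57, adjusted p = 0.24), miR-199a-5p (0.96, adjusted p = 0.06) and miR-214-5p (0.97, adjusted p = 0.079).

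The pair of muscle profiles differed in opposite directions for the arms. Muscle 1 had 2.91 times as much miR-199a-3p as muscle 2, 2.69 times as much miR-214-3p and 2.42 times as much miR-214-5p. Muscle 2 had the higher levels of both 5' arms of miR-199a, the ratio of muscle 1 to muscle 2 being 0.82 for miR-199a-5p and 0.56 for miR-199a-3-5p. The median miRNA differed between them by 0.46 on the log2 scale, and miR-199a-3p by 1.54. Markers of other cells also differed between these profiles. The 2 smooth muscle markers (miR-143-3p and miR-145-5p) summed to 946500 RPTM in muscle 1 and 657860 in muscle 2, and the endothelial miR-126-3p had 1769 and 2049 RPTM. The 4 blood cell markers that could be found of 5 summed to 2277 and 7873 RPTM, none of them at 0. Of these sums, miR-451-5p alone made up 295 and 5006 RPTM, while miR-142-5p was 487 and 466. The part of these markers in the result was not tested.

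Outside muscle and the nervous system, few of the sequences were called and none of these calls held in all fits. In the large intestine, only miR-199a-3p was called higher (log2 fold change 1.37 ± 0.36, edgeR, adjusted p = 0.019), against 11.9% of all miRNAs called higher and 4.85% lower, and with the neural group left out its value was 0.58 and the call was lost (adjusted p = 0.28). In the small intestine, only miR-199a-3-5p was called higher (1.68 ± 0.45, adjusted p = 0.018), against 13.2% of all miRNAs called higher and 4.58% lower, and without the neural group its value was 0.92 (adjusted p = 0.082). On the scale of valid reads both calls were lost as well, with 0.56 (adjusted p = 0.32) and 0.95 (adjusted p = 0.21). The call in the large intestine was lost on leaving out any of the 6 profiles of kidney, large intestine and small intestine (adjusted p from 0.063 to 0.15), and the call in the small intestine on leaving out kidney 1, kidney 2, large intestine 2, muscle 2, small intestine 1 or small intestine 2 (adjusted p from 0.06 to 0.42). In the kidney, none of the 5 was called by edgeR, and none had an unadjusted p under 0.05, the smallest being 0.089 for miR-199a-3-5p with a log2 fold change of −0.99 ± 0.54; of all miRNAs, 12.9% were called higher and 4.58% lower there. DESeq2 called none of the 5 in the kidney either. With the neural group left out, miR-199a-3-5p was called lower in the kidney by −1.55 (adjusted p = 0.019), as it was without the occipital lobe alone (adjusted p = 0.047).

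**Figure D2:**
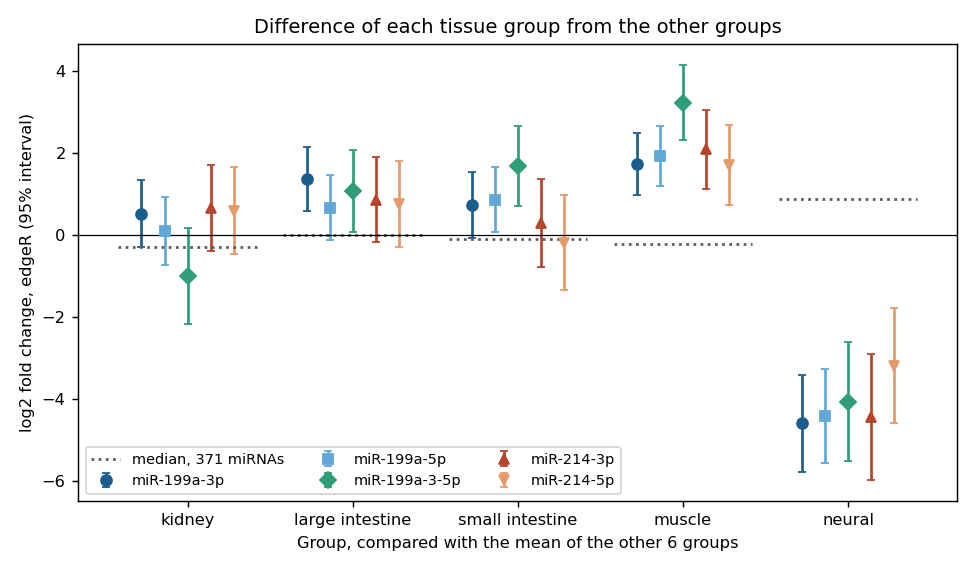
Log2 fold change of each mature sequence between a tissue group and the mean of the other 6 groups, with 95% intervals calculated back from edgeR's test. The dotted lines are the medians of the 371 miRNAs. All 5 intervals lie below 0 in the neural group and above 0 in muscle, while all 5 intervals in kidney, 3 in the large intestine and 3 in the small intestine include 0.

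The order of the groups for miR-199a-3p was, by the fitted log2 difference from the neural group, muscle (5.42), large intestine (5.11), small intestine (4.56), kidney (4.39), liver (4.23) and lung (3.84). No neighbours in this order differed beyond their spread except lung and the neural group (edgeR, adjusted p = 0.00038). For miR-214-3p the order was muscle (5.60), large intestine (4.55), liver (4.47), kidney (4.36), small intestine (4.06) and lung (3.58), and again only the last of these differed from its lower neighbour, the neural group (adjusted p = 0.0034). For miR-199a-3-5p the intestines followed muscle (6.26), with 4.93 in the small and 4.41 in the large intestine, while lung had 3.32, liver 2.84 and kidney 2.63. The single profiles of liver and of lung were assumed to vary like those of the other groups.

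In all 21 pairs of groups, miR-199a-3p, miR-214-3p and miR-214-5p were called in 6 each, all of which are the pairs with the neural group. The background of these pairs was 23.2% of miRNAs called higher in kidney than in the neural group, 22.1% in large intestine, 22.9% in small intestine, 16.4% in liver, 19.4% in lung and 29.1% in muscle. miR-199a-5p was called in 7 pairs, the additional pair being kidney minus muscle with −1.56 (adjusted p = 0.035), where 17.0% of all miRNAs were lower in kidney. miR-199a-3-5p was called in 11 pairs. Beside the neural ones, it was lower than in muscle by −3.62 in kidney (adjusted p = 0.0019), by −3.42 in liver (adjusted p = 0.015, background 15.1%), by −2.94 in lung (adjusted p = 0.039, background 11.3%) and by −1.85 in large intestine (adjusted p = 0.05 as rounded, background 16.4%), and it was lower in kidney than in small intestine by −2.29 (adjusted p = 0.031, background 12.9%). In the pairs and directions without a call among the 5 sequences, 0.27% to 38.3% of all miRNAs were called. For miR-199a-3p, kidney minus muscle was −1.03 with a 95% interval of −2.13 to 0.06, so that a difference was not detectable with these replicates and equal levels are not shown.

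In fold change between groups, other miRNAs ascribed to stromal and vessel wall cells did not move as a block with miR-199a and miR-214. Of the 17 mature sequences of miR-143, miR-145, miR-126, miR-100, miR-99a, miR-125b, miR-152, miR-195 and miR-497, 16 were tested. In the neural group, 6 were lower and 4 higher, where 24.3% of all miRNAs were lower and 43.7% higher, with a median log2 fold change of 0.49 against 0.89 over all miRNAs. miR-143-3p (−2.77) and miR-145-5p (−2.69), which are abundant in smooth muscle, miR-126-3p (−1.89), which is known for endothelium, and miR-152-3p (−1.49) were among those that fell, whereas miR-125b-1-5p (2.21) and miR-99a-5p (0.99) rose. The other arm, miR-152-5p (−1.04), was not called. In muscle, 5 of the 16 were higher, where 22.6% of all miRNAs were, and none was lower (median 0.49 against −0.22). Among these were miR-152-5p (2.20), miR-99a-5p (1.25) and miR-126-3p (0.78). Not called in muscle were miR-152-3p (0.84) and both arms of miR-143 (3p −0.22, 5p −0.23) and miR-145 (3p 0.12, 5p 0.55). In the large intestine 4 were higher and 2 lower, with a median of 0.03, where 11.9% of all miRNAs were higher and 4.85% lower. In the small intestine 4 were higher and 1 lower, with a median of −0.12, where 13.2% of all miRNAs were higher and 4.58% lower. There miR-143-3p was higher by 2.80 and 2.74 and miR-145-5p by 2.51 and 2.69, and miR-126-3p fell by 1.16 and 1.21. In the kidney none of the 16 was called.

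In level, the smooth muscle and endothelial miRNAs overlapped between the neural and the other profiles. miR-143-3p and miR-145-5p summed to 103065 RPTM in the occipital lobe and 683716 RPTM in the spinal cord, and to between 322832 and 3568840 RPTM in the other 10 profiles. miR-126-3p had 493 and 1136 RPTM in the neural profiles and 325 to 9051 RPTM in the others, the highest being lung. In RPTM, the smooth muscle miRNAs were highest in the 4 intestine profiles and miR-126-3p in lung. miR-199a-3p was highest in muscle 1, but its level in muscle 2 was below that in large intestine 1. The fibroblast and vessel wall content of the tissues was not measured in another way.

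Epithelial miRNAs showed another pattern. Of the 11 tested mature sequences, among 14 listed, of miR-200a, miR-200b, miR-200c, miR-141, miR-429, miR-192, miR-194 and miR-215, which mark epithelial cells, all 11 were higher in the large intestine and all 11 in the small intestine, 7 were higher in kidney, 8 were lower in muscle and 9 lower in the neural group. Over all miRNAs, 11.9%, 13.2% and 12.9% were higher in large intestine, small intestine and kidney, and 15.4% and 24.3% were lower in muscle and the neural group. Their median log2 fold change was 4.42 in the large and 5.03 in the small intestine, −3.90 in muscle and −7.18 in the neural group.

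The miRNAs whose levels followed the members most closely were named by Pearson's r of log2(RPTM + 1) over the 12 profiles, among 366 miRNAs. miR-574-3p was nearest to both miR-199a-3p (r = 0.91) and miR-214-3p (r = 0.92). Its level was 13.5 RPTM in the occipital lobe, 21.3 in the spinal cord, 50.4 to 75.1 in kidney and intestines, 106 in liver and 117 in muscle 2, with lung the highest at 127. miR-21-5p (0.89), miR-21-3p (0.89), miR-222-3p (0.77) and miR-511-5p (0.77) followed for miR-199a-3p, and miR-21-3p (0.87), miR-21-5p (0.84), miR-23a-3p (0.74) and miR-222-3p (0.74) for miR-214-3p. miR-21 is abundant in many tissues, and miR-511 is encoded in the gene of the macrophage mannose receptor MRC1. The likeness rests on the neural profiles: over the 10 other profiles, r to miR-199a-3p was 0.64 for miR-574-3p but −0.01 for miR-21-5p. Over these 10, the median r to miR-199a-3p was 0.38 for the 16 stromal and vessel wall sequences and −0.56 for the 11 epithelial ones, against 0.13 over all. To miR-214-3p, these medians were 0.46, −0.64 and 0.22. Over all 12 profiles, they were −0.41, 0.40 and −0.46 to miR-199a-3p, and −0.22, 0.18 and −0.35 to miR-214-3p. Between the members, r was 0.96 for miR-199a-3p and miR-214-3p over 12 profiles and 0.89 over 10. It was 0.91 and 0.59 for miR-199a-3p and miR-199a-5p, arms of the same hairpins, and 0.81 and 0.53 for miR-199a-3p and miR-199a-3-5p, and these 4 values lie below those of miR-574-3p with miR-199a-3p. All points share the valid reads of their profile as the scale.

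The ratio of the arms was examined because both arms of a hairpin are made in equal number and differ later in how much of each is kept. In the pooled miR-199a hairpins, the 3' arm dominated in each profile. The share of 5' arm reads was 7.60% in kidney 1, 6.09% in kidney 2, 7.75% in large intestine 1, 6.36% in large intestine 2, 7.61% in small intestine 1, 16.3% in small intestine 2, 12.5% in liver, 8.96% in lung, 8.15% in muscle 1, 26.9% in muscle 2, 8.45% in the occipital lobe and 12.7% in the spinal cord. Muscle 2 stands apart from all others, and its exact 95% interval is 26.3% to 27.5%, which covers counting error only. In reads, there were 11.3 reads of the 3' arm for each read of the 5' arm in muscle 1 and 2.72 in muscle 2.

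None of the 5 groups tested passed the threshold in the arm ratio, and liver and lung were not tested. The log2 ratio of 5' to 3' reads was higher in muscle than in the other groups by 0.82 ± 0.57 (SE, limma, adjusted p = 0.49 over 104 sets of hairpins), lower in kidney by −0.70 ± 0.57 (adjusted p = 0.68) and in large intestine by −0.65 ± 0.57 (adjusted p = 0.77), and 0.22 ± 0.57 in small intestine (adjusted p = 0.90) and 0.08 ± 0.57 in the neural group (adjusted p = 0.97). The share of sets called was 3.85% higher and 2.88% lower in muscle, 1.92% higher in kidney, 1.92% lower in small intestine, 0.962% higher and 1.92% lower in the neural group, and 0.00% in the remaining directions. Without muscle 2, the muscle value turned to −0.20 (adjusted p = 0.93). The muscle profiles differed by −2.05 on the log2 scale (1 minus 2) and those of small intestine by −1.24, against a median absolute difference over the sets of 0.54 and 0.66. Kidney and large intestine profiles differed by 0.34 and 0.31. Such a shift was not rare among the sets, since the difference in muscle lay at percentile 85.6 of all sets. Over the 12 profiles, the SD of the log2 ratio was 0.72 for miR-199a, and 72 of the 104 sets had a larger SD.

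mml-mir-214 had a more even balance. Its 5' arm held 25.5% of the reads in liver, 27.8% in small intestine 1, 30.8% in muscle 1, 32.9% in muscle 2 and 45.7% in lung, and the 5 other profiles outside the nervous system lay between 31.9% and 37.9%. In the spinal cord it held 50.0% (18 of 36 reads, exact 95% interval 32.9% to 67.1%) and in the occipital lobe 64.3% (interval 35.1% to 87.2%). The set was not tested because the occipital lobe had under 20 reads. Both muscle profiles were alike here, unlike in miR-199a.

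**Figure D3:**
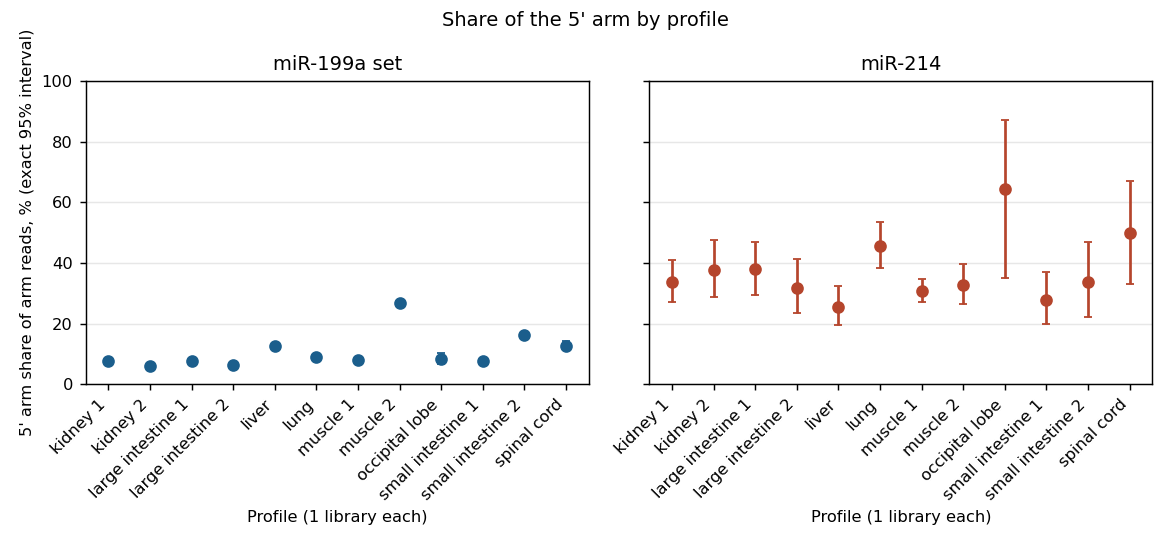
Share of 5' arm reads in percent of all arm reads for the miR-199a hairpins together (left) and for mml-mir-214 (right), with 1 point for each profile and exact 95% intervals from the read counts. Muscle 2 stands at 26.9% in miR-199a, where the others lie between 6.09% and 16.3%, whereas the miR-214 shares lie between 25.5% and 64.3%.

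The share of mml-mir-199a-3 among the 5' arm reads of miR-199a varied several fold among tissues. It was 12.5% in kidney 1 and 17.2% in kidney 2, 29.3% in both large intestine profiles, 38.0% in small intestine 1 and 32.8% in small intestine 2, 36.1% in muscle 1 and 45.3% in muscle 2, 9.61% in liver, 25.5% in lung, 14.8% in the occipital lobe and 33.7% in the spinal cord. Kidney, liver and the occipital lobe were low, and muscle 2 was the highest. At the 3' end, the window kept shorter reads of miR-199a-5p than of mml-mir-199a-3, which lowers these shares. At the 5' end, it kept later starts of mml-mir-199a-3 than of miR-199a-5p, which raises them. Neither amount was measured. Muscle was above the mean of the other profiles by 16.5 percentage points, and kidney below by 14.6. By a two-sided exact permutation test of 2 profiles against 10, p was 0.0606 for muscle and 0.152 for kidney (adjusted over 5 groups 0.303 and 0.379), where the smallest p this design allows is 0.0303. With adjustment over 5 groups, the smallest adjusted p is 0.0758, so that no group could pass 0.05 and the test does not show that the groups are alike. The same exact permutation test gave p = 0.818 for the large intestine, 0.303 for the small intestine and 0.788 for the neural group, and liver and lung were not tested. The neural mean joins unlike values, since the spinal cord had 100 of 297 reads from mml-mir-199a-3 and the occipital lobe 12 of 81.

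The ratio of miR-214-3p to miR-199a-3p was compared in the same way, with a test that cannot pass after adjustment. The log2 ratio of their reads ranged from −7.98 in small intestine 2 to −6.71 in muscle 2 over the 12 profiles, while miR-199a-3p itself ranged from 382 to 18527 RPTM. The ratio was −6.91 in kidney 1 and −7.08 in kidney 2, −7.59 and −7.47 in the large intestine, −7.12 in small intestine 1, −6.73 in liver, −7.23 in lung, −6.81 in muscle 1, −7.32 in the occipital lobe and −6.79 in the spinal cord. Muscle was above the others by 0.46, large intestine below by −0.46 and small intestine below by −0.48, with p = 0.121, 0.212 and 0.152 by the exact permutation test, each adjusted to 0.354. By that permutation test, kidney was above by 0.18 (p = 0.636) and the neural group by 0.11 (p = 0.818). Since miR-199a-3p comes from several copies and miR-214-3p from a single hairpin, the ratio is not that of a shared transcript.

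**Figure D4:**
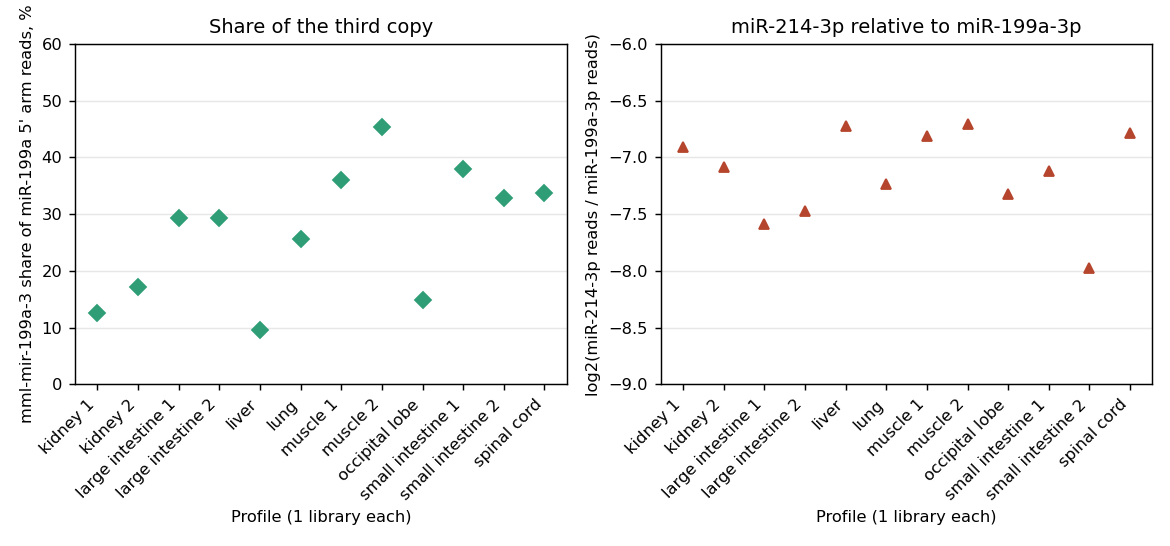
Share of mml-mir-199a-3 in the 5' arm reads of miR-199a in percent (left) and log2 ratio of miR-214-3p to miR-199a-3p reads (right), with 1 point for each profile. The share lies between 9.61% in liver and 45.3% in muscle 2, and the log2 ratio between −7.98 and −6.71.

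Nucleotides that do not match the hairpin at the 3' end of a read were counted as tails. Whether they were added to the mature miRNA in the tissue was not tested. Among exact and tailed reads, 29.7% of miR-199a-3p, 26.1% of miR-199a-5p, 16.5% of miR-199a-3-5p, 35.8% of miR-214-3p and 37.0% of miR-214-5p carried such a tail of 1 or 2 nucleotides, against a median of 21.9% over miRNAs. Of the pooled reads of all miRNAs, 27.5% carried a tail. The kind of tail differed between the members. Tails of A were found on 32.7% of the miR-214-5p reads, 16% of miR-214-3p and 12.3% of miR-199a-3p, against a median of 3.40% over miRNAs. Tails of U were found on 11.7% of miR-199a-5p and 8.13% of miR-199a-3-5p, against a median of 1.85%. An added A cannot be told from an altered last base.

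Only miR-199a-3p had enough reads in each profile for a test of its tails, and none of the 5 groups tested passed the threshold. Liver, with tails on 35.3% of the reads, and lung, with 39.0%, the highest of the profiles, were not tested. Over the pooled reads of all miRNAs, tails were on 27.8% in liver and on 37.6% in lung, which was again the highest. The log2 ratio of tailed to untailed reads in muscle was lower than in the other groups by −0.43 ± 0.31 (SE, limma, adjusted p = 0.57), and the values of the other groups lay between −0.25 and −0.01. The count of calls was 0 of 5 groups, the smallest unadjusted p being 0.2, against 3.82% lower and 0.763% higher of the 131 sequences tested in muscle and 0.00% in the other groups. Tails of C varied between profiles of the same tissue: they were on 6.80% of the miR-199a-3p reads in kidney 1 and 18.8% in kidney 2, and on 24.1% in large intestine 1 and 6.64% in large intestine 2. Over all miRNAs, tails of C were on 8.53% and 21.6% in kidney and on 24.7% and 8.25% in large intestine, so that the pair of profiles differed in the same direction there. Tails of A on miR-199a-3p were steadier, from 10.1% in the occipital lobe to 17.8% in lung.

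**Figure D5:**
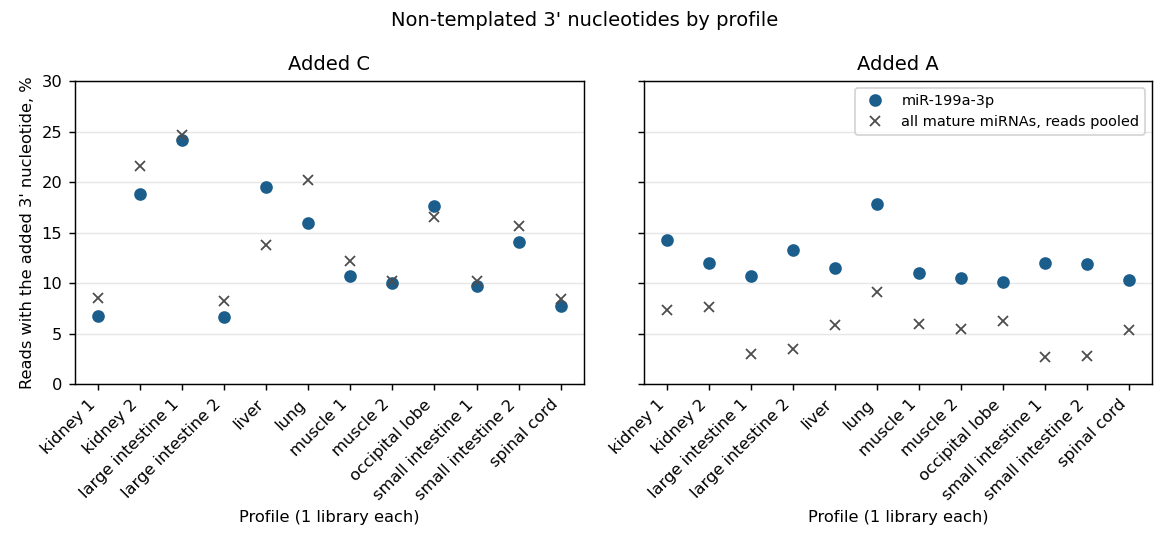
Percent of reads with a tail of C (left) or of A (right) at the 3' end, for miR-199a-3p (circles) and for the pooled reads of all mature miRNAs (crosses), with 1 point for each profile. The C tails of miR-199a-3p follow those of all miRNAs, with 24.1% in large intestine 1 and 6.64% in large intestine 2, and its A tails are more frequent than those of all miRNAs in each profile.

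Mutation and editing sites were sought with the criteria of a level of at least 5%, at least 10 changed reads and an adjusted p under 0.05 by an exact binomial test against an error rate of 0.001. Of 23280 sites seen in all pre-miRNAs, 523 passed, and 12 of them lie in the member hairpins. Reads that match several copies of mml-mir-199a are counted in each copy, so that not all of the 12 are distinct. For example, G68C, G45C and G63C in the copies each have 16 changed reads in muscle 1. None of the 12 lies in a seed. The site in the miR-214-3p sequence is C89A in mml-mir-214, counted from the 5' end of the hairpin, at position 19 of the listed mature miRNA. It passed in 9 profiles, with levels from 5.09% in muscle 1 (33 of 648 reads, Wilson 95% interval 3.65% to 7.07%) over 19.4% in muscle 2 to 38.5% in small intestine 2 (57 of 148 reads, interval 31.1% to 46.5%). The other site in this hairpin is G50A at position 21 of miR-214-5p, with 17.9% in large intestine 1 and 5.20% in muscle 1. In mml-mir-199a-1, G92A follows the last base of miR-199a-3p and passed in 11 profiles with 57.9% to 76.8% of the reads that reach it. Reads changed only in their last few bases cannot be told apart from shorter reads with added A, and the sites at the ends of miR-199a-5p and miR-199a-3p rest on few reads that extend so far.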

How the data were processed

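Small RNAs of 12 profiles were sequenced. The authors kept reads with high sequencing scores, removed the 3' adapter and counted identical reads of at least 18 nucleotides, and the deposited files hold these counts, 1 row for each unique sequence. Here the sequences were aligned without gaps to 832 pre-miRNAs of the study, allowing 1 mismatch or a 3' tail of up to 2 nucleotides. Levels of mature miRNAs count exact matches whose ends lie at most 2 nucleotides from the listed ends. Those below a mean of 5 RPTM or an SD of 1 were dropped, which left 371 of 1219. RefSeq names came from T2T-MMU8v2.0 and no coordinates of it are given, because it is not the build of the study's list. Seeds and mature sequences are those of the study's list.

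Levels were tested with edgeR 4.0.16 (quasi-likelihood, TMM factors, R 4.3.3) in 7 groups, each of the 5 groups with 2 profiles against the mean of the other 6, with Benjamini-Hochberg adjustment over the 371 miRNAs and a threshold of 0.05. The neural group has 1 profile of each of its tissues, so that its spread includes the difference between them. Arm ratios (at least 20 reads in each profile, pseudocount 0.5) and tails (at least 100 reads) were tested with limma 3.58.1 on log2 ratios, and single values with a two-sided exact permutation test, adjusted over 5 groups. Sites were tested with an exact binomial test. Python 3.11.15, numpy 2.4.6, pandas 2.3.3, scipy 1.17.1 and matplotlib 3.10.9 were used, and DESeq2 1.42.0 as an alternative. Intervals and read floors (3 reads, 1.17 to 1.36 RPTM) cover counting error only, since the reads have no molecular identifiers. On simulated data, edgeR called 71 of 74 miRNAs changed 8-fold in muscle among 371, with 1 false call. On the same terms, limma called 20 of 21 arm sets changed 8-fold among 104, with 0 false calls. Smaller changes were not simulated. The recovery of smaller differences is therefore not known, such as 3.28-fold for miR-214-5p or a log2 of 0.82 for the arm ratio in muscle.

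Named are the mature sequences of the 4 pre-miRNAs, the 5 miRNAs most like miR-199a-3p and miR-214-3p, and members of a stromal and an epithelial list. The markers of cell types and these lists, like the members, were chosen with earlier results of these data known. Whether the replicate numbers pair the profiles by animal is not known from the labels. Deviations from the tissue means correlated at 0.03 on average over 6 pairs of tissues (−0.14 to 0.15), which does not settle it. Alternatives were other scalings, filters, assignments, groupings, DESeq2 and leaving out each profile. The fits without the neural group and on the 8 numbered profiles without a block were chosen after seeing the data.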

Additional observations from a re-analysis of the deposited data

How the results depend on the processing

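The neural calls of all 5 sequences held in each fit run, 5 to 5 on leaving out 1 profile and 3 of 3 with identical reads, where 2 sequences fell under the filter. Of the 5 member sequences called, valid reads as library sizes gave 0 in large and 0 in small intestine. Identical reads gave 3 in muscle, 3 in the neural group and 0 in small intestine. With 8 tissues as groups, 2 were called in kidney, 4 in large and 3 in small intestine. Without the neural group, 1 was called in kidney and 0 in either intestine. On leaving out 1 profile, counts ran from 0 to 1 in kidney, 0 to 2 in large intestine, 0 to 2 in small intestine and 2 to 5 in muscle, the lowest being without muscle 1.

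In a fit of the 8 numbered profiles with a replicate block, 1 was called in kidney, 0 in large intestine, 1 in muscle and 0 in small intestine, and without the block on the same profiles 1, 0, 2 and 0. Whether the numbers pair the profiles by animal is not known. Under the block, log2 fold changes turned to −0.23 and −0.51 for miR-199a-3p and miR-199a-5p in kidney, to −0.28, −0.17 and −0.052 for miR-199a-5p, miR-199a-3-5p and miR-214-3p in large intestine, and to −0.54, −0.17 and −1.02 for miR-199a-3p, miR-199a-5p and miR-214-3p in small intestine. In muscle, the block left miR-199a-3-5p called and gave 0.45 for miR-199a-3p (adjusted p = 0.36), 0.96 for miR-199a-5p (adjusted p = 0.08), 0.997 for miR-214-3p (adjusted p = 0.053) and 0.87 for miR-214-5p (adjusted p = 0.096). Without the block the turned values were −0.25, −0.53, −0.30, −0.23, −0.15, −0.61, −0.14 and −1.02 in the same order.

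Other log2 fold changes turned as well. With valid reads they were −0.26 for miR-199a-5p in kidney, −0.14 and −0.034 for miR-199a-5p and miR-214-5p in large intestine and −0.43 for miR-214-3p in small intestine. miR-214-5p in small intestine turned to 0.25 with mismatches and tails and to 0.22 with 8 tissues. Without the neural group, miR-199a-3p and miR-199a-5p were −0.062 and −0.48 in kidney, miR-199a-5p was −0.12 in large intestine, and miR-199a-3p and miR-214-3p were −0.22 and −0.68 in small intestine. Leaving out 1 profile gave −0.31 to 0.56 for miR-199a-5p in kidney and −0.37 to 0.59 for miR-214-3p in small intestine.

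No arm or tail call was gained or lost under the alternatives run. The arm difference ran from −0.20 to 1.85 in muscle, −0.25 to 0.40 in the neural group and −0.40 to 0.84 in small intestine on leaving out 1 profile, and identical reads gave −0.12 in small intestine. The tail difference was 0.082 in kidney with A alone, 0.019 in muscle and 0.45 in the neural group with U alone, 0.14 and 0.21 in kidney and large intestine under the block, and on leaving out 1 profile −0.37 to 0.24 in kidney, −0.47 to 0.46 in large intestine and −0.55 to 0.061 in the neural group. The mml-mir-199a-3 share in the neural group ran from −12.7 to 6.11 percentage points. For identical reads this share has no value, since no read was identical to the listed sequence. The miR-214-3p to miR-199a-3p ratio ran from −0.16 to 0.38 in the neural group, and identical reads gave 0.42 in large intestine and −0.58 in the neural group. Of the 5 miRNAs most like either 3p, 1 and 1 remained by Spearman's rho, 3 of those for miR-214-3p on the TMM scale, and 0 and 0 without the neural profiles. Member sites numbered 12 with an error rate of 0.01 and 11 without tails. The cause of these changes was not tested.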

Other observations

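The most frequent form of miR-199a-5p, of 23 nucleotides, held 80.8% of its exact reads in muscle 2 and 79.2% in the spinal cord, 76.4% in liver, 72.5% in the occipital lobe and 68.7% in small intestine 2, and 54.3% to 66.8% in the other 7 profiles. Tails were on 16.9% of the miR-199a-5p reads in muscle 2 and on 33.0% in muscle 1, and on 14.8% in small intestine 2 and 27.1% in small intestine 1. In both tissues, the profile with the larger 5' arm share of miR-199a had the smaller share of tailed miR-199a-5p reads. Kidney went the same way, with tails on 24.5% in kidney 1 and 31.25% in kidney 2, at 5' arm shares of 7.60% and 6.09%. Large intestine went the other way, with tails on 32.2% in large intestine 1 and 29.8% in large intestine 2, at 5' arm shares of 7.75% and 6.36%. This was seen after the values were known and was not tested.

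Among the blood cell miRNAs found, miR-451-5p differed most between the muscle profiles. In muscle 1 and muscle 2, miR-142-5p had 487 and 466 RPTM, miR-150-5p 1473 and 2354, and miR-223-3p 22.9 and 47.1. miR-451-5p, which is known for red blood cells, had 5006 RPTM in muscle 2 and 295 in muscle 1, and at most 1362 in any other profile. Its part in the difference of the arms was not tested.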
